A study of Mus musculus with 4 samples.

Results

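The heavy chain variable segments are the V elements of the immunoglobulin heavy chain locus, and they were taken here as every gene of the deposited gene count table whose symbol begins with Ighv. The rule found 114 segments among 41342 named genes. They lie on chromosome 12 of the mouse genome build mm10 (GRCm38), between 113574242 and 116000461, a stretch of 2.43 Mb, and they fall into 16 families named by the number after Ighv. Of the 114 segments, 106 were annotated as functional V genes and 8 as V pseudogenes, and 80 had the leader exon and the V exon of a complete segment while 34 were listed with 1 exon. The median length in the count table was 350 bases (range 90 to 400).

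A B cell builds its heavy chain gene by joining 1 V segment to a D and a J segment, and the joined exon is then spliced to a constant gene, in naive cells first to Ighm, the constant gene of IgM. The choice of V segment supplies the first part of the antigen-binding domain, including its first and second hypervariable loops. The segments nearest to the D elements belong mainly to the interleaved Ighv5 and Ighv2 (Q52) families, while the far part of the locus holds the large Ighv1 (J558) and Ighv8 families. In mature B cells the transcription of the assembled gene is raised by enhancers inside the locus and by the 3′ regulatory region behind the last constant gene. Lipopolysaccharide (LPS), a component of bacterial walls, activates B cells through a Toll-like receptor and drives many of them towards antibody secretion.

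The study sequenced RNA from B cells of the spleen in 4 libraries, 1 for each combination of 2 genotypes and 2 states, and each library came, per the labels, from a pool of cells of 4 animals of strain 129. The study's methods describe the pooling differently, and how many animals stand behind a library is not settled here. ΔleftPAL mice (delta2leftPAL in the labels) lacked the left arm of the palindrome of the 3′ regulatory region, with the enhancers hs3a and hs1,2 and the inverted repeats (IRIS) between them. ΔIRIS mice (deltaIRIS in the labels) carried the same deletion, but hs3a, turned around, and hs1,2 had been put back, so that the enhancers were present without the palindrome. B cells were purified by removing CD43-bearing cells, which takes away B-1 cells and plasmablasts as well as other leukocytes, and were used at once (resting) or after 48 h of culture with 5 µg/ml LPS. Both genotypes thus carry a mutated 3′ regulatory region, and libraries of unmutated mice were not analysed here. With 1 library per group no test was run, and all intervals given are 95% intervals that cover counting error only.

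The V exons of the segments on which the results turn are shown first, because reads of a spliced heavy chain transcript are assigned to a segment by these bases. Each is the C57BL/6 reference sequence of the GENCODE transcript (build GRCm38, minus strand), 5′ to 3′, without the first 11 bases of the exon, which encode the end of the leader in Ighv5-6. The Ighv5 sequences were compared base by base from their start, without gaps, and capitals mark each base that differs from the base of Ighv5-6 at the same position. Ighv5-6 had the largest mean share of the Ighv5 family. Ighv5-6 lies at chr12:113625506-113625801. Ighv5-17 is at chr12:113859149-113859442 (90.5% identity to Ighv5-6 over 294 bases). Ighv5-4 is at chr12:113597446-113597741 (95.3%). Ighv5-12 is at chr12:113702124-113702419 (92.9%). Ighv5-9-1 is at chr12:113736111-113736406 (94.3%). Ighv5-2, known as VH81X, is at chr12:113578504-113578799 (86.5%), and among the 8 Ighv5 segments averaging 50 counts or more it was the only one whose share fell after LPS in ΔleftPAL.
Ighv5-6: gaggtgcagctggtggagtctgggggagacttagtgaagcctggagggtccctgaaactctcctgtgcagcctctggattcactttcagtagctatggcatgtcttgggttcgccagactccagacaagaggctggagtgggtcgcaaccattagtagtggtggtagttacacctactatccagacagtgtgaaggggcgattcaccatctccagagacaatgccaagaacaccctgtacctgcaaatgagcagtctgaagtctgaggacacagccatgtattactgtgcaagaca
Ighv5-17: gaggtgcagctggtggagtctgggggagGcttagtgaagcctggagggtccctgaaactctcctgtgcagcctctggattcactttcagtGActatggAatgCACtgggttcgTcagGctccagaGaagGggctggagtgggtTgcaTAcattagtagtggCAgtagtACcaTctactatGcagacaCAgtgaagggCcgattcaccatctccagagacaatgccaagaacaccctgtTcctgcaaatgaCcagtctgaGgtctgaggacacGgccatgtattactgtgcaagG
Ighv5-4: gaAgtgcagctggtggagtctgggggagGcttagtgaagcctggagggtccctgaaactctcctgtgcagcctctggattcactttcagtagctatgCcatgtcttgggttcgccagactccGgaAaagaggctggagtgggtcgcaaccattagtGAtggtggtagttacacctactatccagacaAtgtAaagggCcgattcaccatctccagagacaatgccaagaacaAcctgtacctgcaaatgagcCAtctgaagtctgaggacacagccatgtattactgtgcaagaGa
Ighv5-12: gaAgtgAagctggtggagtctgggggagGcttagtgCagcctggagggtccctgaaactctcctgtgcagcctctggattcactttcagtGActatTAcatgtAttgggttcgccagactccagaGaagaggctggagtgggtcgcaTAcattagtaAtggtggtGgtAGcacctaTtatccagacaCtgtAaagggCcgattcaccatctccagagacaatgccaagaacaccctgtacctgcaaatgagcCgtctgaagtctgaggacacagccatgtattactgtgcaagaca
Ighv5-9-1: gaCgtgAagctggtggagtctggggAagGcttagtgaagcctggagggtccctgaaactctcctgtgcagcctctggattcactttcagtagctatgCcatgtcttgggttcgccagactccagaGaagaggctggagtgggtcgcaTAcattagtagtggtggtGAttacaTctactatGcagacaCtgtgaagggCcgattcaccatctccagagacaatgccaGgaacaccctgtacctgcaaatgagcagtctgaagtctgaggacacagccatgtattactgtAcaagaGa
Ighv5-2: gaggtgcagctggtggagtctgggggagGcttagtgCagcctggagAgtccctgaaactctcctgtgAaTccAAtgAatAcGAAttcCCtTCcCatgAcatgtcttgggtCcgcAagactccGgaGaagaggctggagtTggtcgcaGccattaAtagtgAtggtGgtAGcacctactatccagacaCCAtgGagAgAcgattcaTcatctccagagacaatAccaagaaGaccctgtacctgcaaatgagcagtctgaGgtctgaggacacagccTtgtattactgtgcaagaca

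For comparison, Ighv9-3, the segment with the largest mean share, lies at chr12:114140692-114140985, and Ighv15-2, which fell furthest in share after LPS in both genotypes among segments averaging 50 counts or more, lies at chr12:114564578-114564877. Both are shown without capitals.
Ighv9-3: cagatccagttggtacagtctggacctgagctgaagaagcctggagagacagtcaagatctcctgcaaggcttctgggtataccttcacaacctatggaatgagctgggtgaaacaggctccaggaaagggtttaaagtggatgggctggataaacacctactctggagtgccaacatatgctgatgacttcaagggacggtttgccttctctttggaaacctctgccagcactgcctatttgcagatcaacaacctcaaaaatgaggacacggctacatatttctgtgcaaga
Ighv15-2: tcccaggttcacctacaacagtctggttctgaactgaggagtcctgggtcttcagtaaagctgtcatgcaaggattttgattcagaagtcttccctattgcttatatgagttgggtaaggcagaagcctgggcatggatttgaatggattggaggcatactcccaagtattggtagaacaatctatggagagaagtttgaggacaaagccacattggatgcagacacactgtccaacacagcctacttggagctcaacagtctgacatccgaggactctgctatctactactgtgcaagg

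Among Ighv5-6, Ighv5-17, Ighv5-4, Ighv5-12 and Ighv5-9-1 the identity over the whole V exon ran from 88.6% to 95.4% over 10 pairs, and no pair shared an unbroken run as long as 1 read (150 bases), while all 10 pairs shared runs of 31 bases. Over all 114 segments, 6 shared a run of 150 bases with another segment and 109 a run of 31 bases, and the median identity of a segment to its nearest relative was 95.1%. The mice were of strain 129, whose heavy chain haplotype differs from that of the C57BL/6 reference, so a read could be placed on the reference segment most like its own. The part of this in the values below was not tested.

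Depth and purity were first compared. The libraries held 23621743 to 29778717 counts, of which 13067 (ΔleftPAL resting), 51426 (ΔleftPAL LPS), 14625 (ΔIRIS resting) and 40430 (ΔIRIS LPS) fell on Ighv segments. The 5 B cell markers summed to 2015 to 3218 CPM (counts scaled to the library size) in the 4 libraries, and the 3 T cell markers to at most 4.67 CPM and to 0 in both LPS libraries. Red cell transcripts summed to 23716 and 17318 CPM in the resting libraries of ΔleftPAL and ΔIRIS and to 33.6 and 71.1 CPM after LPS, and myeloid markers to 279 and 384 CPM at rest and to 6.79 and 16.0 CPM after LPS. Of the myeloid markers, Lyz2 and Csf1r fell in both genotypes. Itgam rose after LPS in ΔIRIS, from 10.5 to 15.4 CPM, and supplied most of the sum there. By these sums resting libraries thus held more RNA of other cells than the cultured libraries. B-lineage cells of other kinds, which carry Ighv transcripts of their own, also differed. The 7 germinal centre markers summed to 88.5, 95.8, 49.2 and 121 CPM in ΔleftPAL resting, ΔleftPAL LPS, ΔIRIS resting and ΔIRIS LPS. Of the switched constant genes, Igha (IgA) had 748, 18, 213 and 12 counts in that order. Ighg2c (IgG2c) had 375, 8, 49 and 20 counts and Ighg2b 685, 300, 246 and 411. These genes were highest in ΔleftPAL resting. Ighg3 had 653, 688, 982 and 1661 counts and Ighg1 64, 54, 26 and 75, and both were highest in ΔIRIS LPS. The part of B-lineage cells of other kinds in the shares was not tested. In such bulk RNA, fewer cells that use a segment and less RNA per cell cannot be told apart.

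The first question was how much heavy chain V sequence each library held. The summed Ighv level was 535 CPM in resting and 1909 CPM in LPS-treated ΔleftPAL cells, a 3.57-fold rise (log2 1.84, interval 1.81 to 1.86). In ΔIRIS cells it was 503 CPM at rest and 1379 CPM after LPS, a 2.74-fold rise (log2 1.46, interval 1.43 to 1.48). At rest ΔIRIS stood at 0.940 times the level of ΔleftPAL (log2 -0.09, interval -0.12 to -0.05), and after LPS at 0.723 times (log2 -0.47, interval -0.49 to -0.45). The summed level was thus higher in both LPS libraries than in both resting libraries.

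The variable segments moved with the constant gene they are spliced to. Ighm stood at 3355, 11707, 3025 and 8011 CPM in ΔleftPAL resting, ΔleftPAL LPS, ΔIRIS resting and ΔIRIS LPS, and the Ighv counts per 1000 Ighm counts were 159, 163, 166 and 172 in the same order. The log2 differences of this ratio were 0.032 and 0.050 for LPS over resting and 0.061 and 0.079 for ΔIRIS over ΔleftPAL. The kappa light chain V segments (Igkv), assembled at another locus, also rose after LPS, from 1006 to 3276 CPM in ΔleftPAL (log2 1.70) and from 928 to 1992 CPM in ΔIRIS (log2 1.10). Plasmablast markers, genes of antibody-secreting cells, were measured beside them. The 6 markers in the table summed to 625, 1815, 897 and 1279 CPM in the same order, and 6 of 6 were higher in ΔleftPAL LPS than in ΔIRIS LPS. Irf4 supplied most of the sum in ΔIRIS resting. After LPS in ΔIRIS, Irf4 (604 to 392 CPM) and Sdc1 (17.9 to 13.2 CPM) fell, while Prdm1, Xbp1, Igj and Mzb1 rose. In ΔleftPAL all 6 markers rose. Their part in the Ighv level was not tested.

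**Figure D1:**
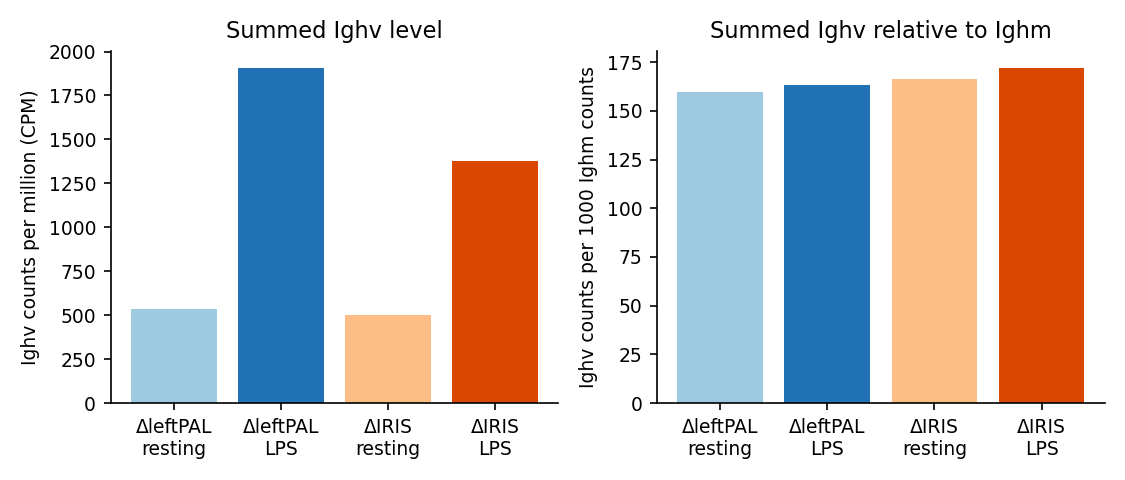
Summed Ighv counts in each of the 4 libraries, as CPM (left) and per 1000 Ighm counts (right), with bars from 0 and 1 library per bar. The CPM bars rise from 535 and 503 at rest to 1909 and 1379 after LPS, while the bars relative to Ighm stay between 159 and 172.

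Counts of the J segments, which hold the other end of the joined exon, were few. Ighj4 had 393, 400, 516 and 357 counts in ΔleftPAL resting, ΔleftPAL LPS, ΔIRIS resting and ΔIRIS LPS, and Ighj3 had 283, 167, 280 and 141. Neither rose with the V segments after LPS.

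All segments but 6 had at least 1 count in some library. The 6 at 0 throughout were Ighv5-16, Ighv16-1, Ighv6-5, Ighv1-24, Ighv1-49 and Ighv8-14. Of the 114 segments, 12 had at most 3 counts in every library, 93 had more than 3 in every library, and 72 averaged 50 counts or more across the 4 libraries. These 72 were compared one by one. Use was broad, since 27 segments each took at least 1% of the Ighv counts in every library. The 8 pseudogenes together took 2.08%, 1.70%, 2.22% and 1.94% of the counts in ΔleftPAL resting, ΔleftPAL LPS, ΔIRIS resting and ΔIRIS LPS, most of them from Ighv1-14 with 198, 712, 207 and 594 counts.

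By gene counts Ighv9-3 led in 3 of the 4 libraries, with 7.65% of all Ighv counts in ΔleftPAL resting, 7.05% in ΔleftPAL LPS, 7.04% in ΔIRIS resting and 8.07% in ΔIRIS LPS. Its share moved little, by log2 -0.12 (interval -0.22 to -0.02) after LPS in ΔleftPAL and by 0.20 (0.10 to 0.30) in ΔIRIS. By the authors' kallisto estimates, a second way of assigning reads described further on, Ighv9-3 led in none of them, and Ighv6-6 led in all 4 with 6.77%, 6.63%, 8.30% and 9.37% of the estimated Ighv counts in ΔleftPAL resting, ΔIRIS resting, ΔleftPAL LPS and ΔIRIS LPS. By gene counts Ighv2-9 held a steady share, at 4.93%, 5.49%, 4.14% and 4.78%. Ighv7-3 held 3.21%, 4.71%, 3.45% and 4.25%, and Ighv6-6 3.04%, 3.36%, 3.38% and 4.27%. Ighv10-1 held 3.11%, 2.81%, 3.34% and 3.95%. All of these lie in the first 49 segments of the locus, counted from the constant genes. On the scale of counts per base, which allows levels of segments to be ordered, Ighv9-3 again ranked first by mean share, followed by Ighv5-6, Ighv2-9, Ighv5-17 and Ighv7-3.

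The spread of use over segments was narrower after LPS. The effective number of segments, the number of equally used segments that would give the same concentration (inverse Simpson index), was 40.9 ± 0.563 (SE of counting) in ΔleftPAL resting and 42.9 ± 0.519 in ΔIRIS resting. After LPS it was 28.3 ± 0.194 in ΔleftPAL and 36.6 ± 0.275 in ΔIRIS. The 10 most used segments took 37.4%, 50.03%, 36.9% and 41.5% of the counts in ΔleftPAL resting, ΔleftPAL LPS, ΔIRIS resting and ΔIRIS LPS. By gene counts the ΔleftPAL LPS library thus had more of its counts on fewer segments, and Ighv5-6 came first there with 8.97%. By kallisto this difference between the genotypes was lost, with effective numbers after LPS of 27.4 in ΔleftPAL and 27.7 in ΔIRIS against 31.9 and 33.4 at rest, and Ighv5-6 came behind Ighv6-6 and Ighv10-1 in ΔleftPAL LPS.

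Family use was nearly the same in the 2 resting libraries. Ighv1 took 30.2% in ΔleftPAL and 30.8% in ΔIRIS at rest, Ighv2 14.0% and 13.2%, Ighv5 13.7% and 12.8%, and Ighv9 10.95% and 10.0%. Over the 72 segments the log2 shares of the resting libraries correlated with r = 0.973, against 0.887 between resting and LPS in ΔleftPAL, 0.946 between resting and LPS in ΔIRIS and 0.932 between the LPS libraries. These correlations are across segments of the same reference and the same lengths and are given as a description. By gene counts none of the 72 segments differed 2-fold in share between the resting libraries. By the same rule 3.85% of the 78 kappa V segments tested differed, and by CPM 2.85% of all genes (1.83% higher and 1.02% lower in ΔIRIS). The largest differences at rest were Ighv4-1, higher in ΔIRIS by log2 0.65 (interval 0.33 to 0.98), and Ighv1-82, lower by log2 -0.65. By kallisto Ighv4-1 took 0.815% of the estimated Ighv counts in ΔleftPAL resting and 1.65% in ΔIRIS resting. It was the 1 segment of 48 tested that differed 2-fold at rest by kallisto.

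After LPS the Ighv5 family doubled its share in ΔleftPAL and not in ΔIRIS. It held 13.7% (interval 13.1 to 14.3) of the Ighv counts in resting and 27.7% (27.3 to 28.1) in LPS-treated ΔleftPAL cells, a log2 change of 1.02 (0.94 to 1.09). In ΔIRIS it held 12.8% at rest and 13.6% after LPS, a log2 change of 0.09 (0.01 to 0.16). The change in ΔIRIS minus that in ΔleftPAL was -0.93 ± 0.049 (SE of counting). In ΔleftPAL every other family changed its share less than Ighv5 did, except Ighv15, which has the single member Ighv15-2.

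**Figure D2:**
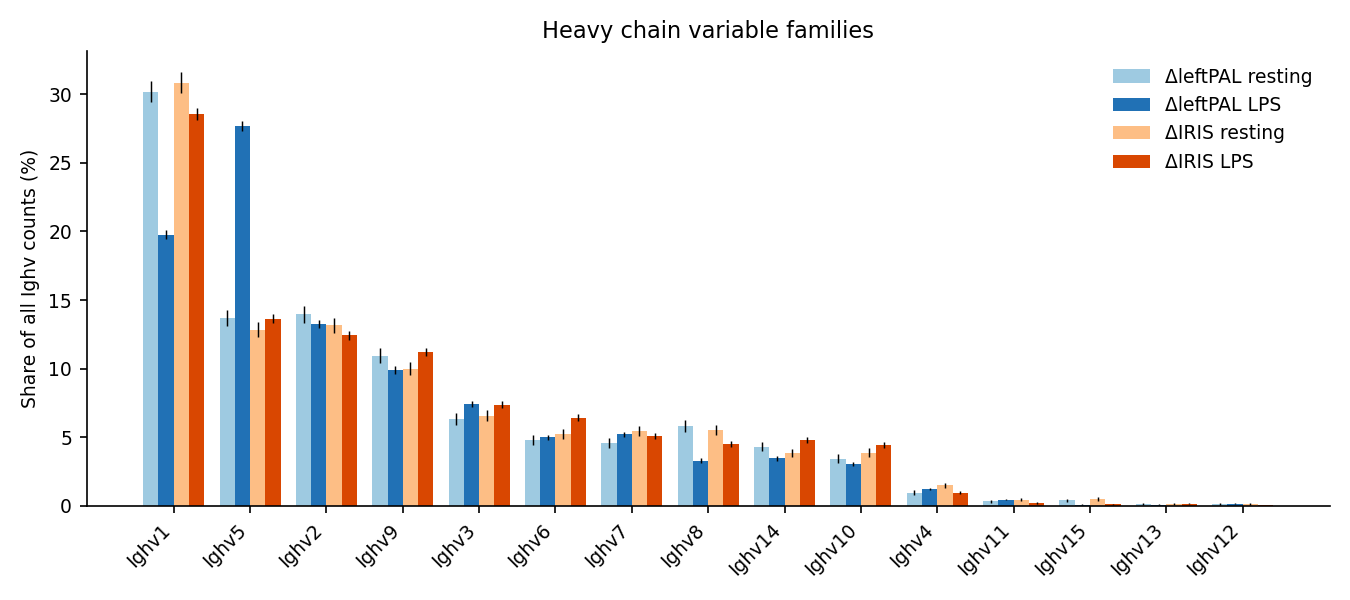
Share of all Ighv counts (%) taken by each of 15 families (Ighv16, at 0 counts, is left out) in the 4 libraries, with 95% counting intervals as error bars. The Ighv5 bar of ΔleftPAL LPS reaches 27.7% while the other 3 Ighv5 bars lie between 12.8% and 13.7%, and the Ighv1 bar of ΔleftPAL LPS is the lowest of its family at 19.8%.

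The rise was carried by several members. Ighv5-6 had 570 counts in ΔleftPAL resting, 4615 in ΔleftPAL LPS, 505 in ΔIRIS resting and 1609 in ΔIRIS LPS, which are shares of 4.36%, 8.97%, 3.45% and 3.98%. Its share rose 2.06-fold in ΔleftPAL and 1.15-fold in ΔIRIS. Ighv5-17 had 401, 3562, 408 and 1431 counts in the same order, or 3.07%, 6.93%, 2.79% and 3.54%, changes of 2.26-fold and 1.27-fold. In both segments the ΔleftPAL LPS library lay well above the other 3.

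Ighv5-4 had 312, 2649, 352 and 969 counts (2.39%, 5.15%, 2.41% and 2.397%), and its share changed 2.16-fold in ΔleftPAL and 0.996-fold in ΔIRIS. Ighv5-12 had 133, 1334, 216 and 553 counts (1.02%, 2.59%, 1.48% and 1.37%), changes of 2.55-fold and 0.926-fold. Ighv5-9-1 had 82, 949, 106 and 264 counts (0.628%, 1.85%, 0.725% and 0.653%), changes of 2.94-fold and 0.901-fold. In ΔleftPAL 19 of the 72 segments differed at least 2-fold in share between LPS and resting, against 1.28% of the 78 kappa V segments tested by the same rule and, by CPM, 35.6% of all genes. These 5 segments were the only ones of the 72 whose share was at least 2-fold higher after LPS in ΔleftPAL, and no segment was in ΔIRIS. By the same rule 0% of the 78 kappa V segments were higher in either genotype, and by CPM 20.1% of all genes were higher in ΔleftPAL and 21.6% in ΔIRIS.

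The 3 remaining Ighv5 segments with an average of 50 counts or more were less than 2-fold higher or fell. Ighv5-9 kept its share, at 1.16%, 1.28%, 0.998% and 1.11% (152, 659, 146 and 450 counts). Ighv5-15 had 55, 337, 68 and 148 counts, with changes in share of log2 0.64 (interval 0.22 to 1.08) in ΔleftPAL and -0.34 (-0.77 to 0.09) in ΔIRIS, the direction of the 5 segments above in ΔleftPAL at a smaller size. Ighv5-2, the nearest of the 72 to the D elements and known for its frequent use in the fetal liver, had 84, 130, 78 and 92 counts. Its share fell in both genotypes, from 0.643% to 0.253% in ΔleftPAL (log2 -1.35) and from 0.533% to 0.228% in ΔIRIS (log2 -1.23). Of the Ighv5 sequences printed above, that of Ighv5-2 is the least like Ighv5-6. Over the whole V exon Ighv5-9, which is not printed, was 95.1% identical to Ighv5-6, and Ighv5-15 87.6%. Of the 5 segments above, Ighv5-4 was at 95.4%, Ighv5-9-1 at 94.5%, Ighv5-12 at 93.2% and Ighv5-17 at 90.2%. Whether likeness to Ighv5-6 goes with the change in share was not tested.

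**Figure D3:**
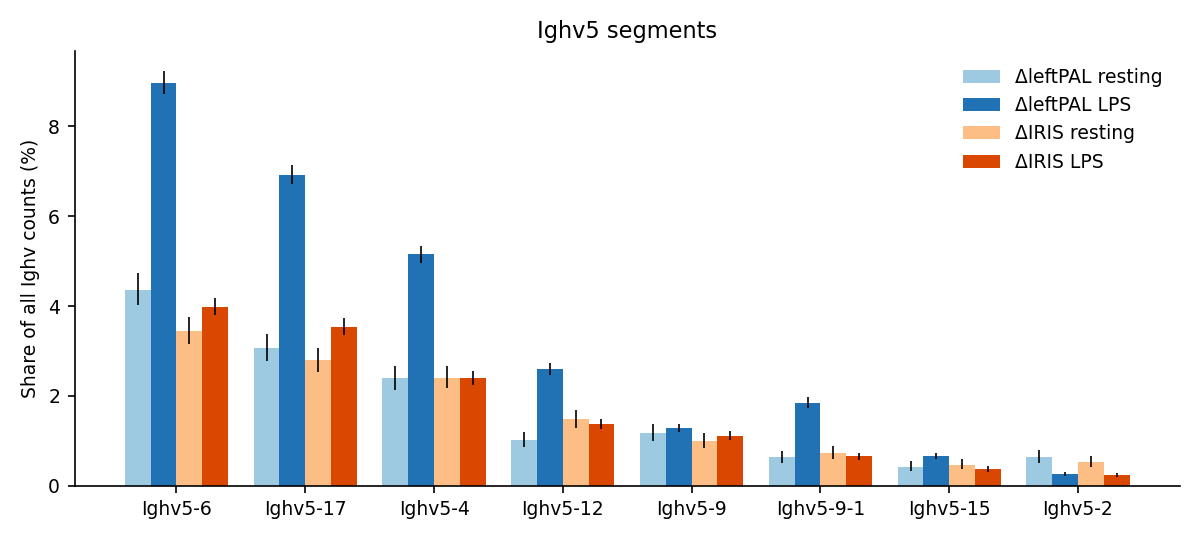
Share of all Ighv counts (%) of the 8 Ighv5 segments with a mean of at least 50 counts, in the 4 libraries, with 95% counting intervals as error bars. In Ighv5-6, Ighv5-17, Ighv5-4, Ighv5-12 and Ighv5-9-1 the ΔleftPAL LPS bar is more than 2-fold above the ΔleftPAL resting bar, and in Ighv5-2 both LPS bars are below both resting bars.

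The Ighv5 segments lie among Ighv2 segments, whose summed share did not rise. Ighv2 held 14.0%, 13.2%, 13.2% and 12.4% in ΔleftPAL resting, ΔleftPAL LPS, ΔIRIS resting and ΔIRIS LPS. Of its 8 segments with a mean of at least 50 counts, 3 had a higher and 5 a lower share after LPS in ΔleftPAL, with a median log2 change of -0.24, against 7 higher and 1 lower and a median of 1.07 for the 8 Ighv5 segments. Over all 72 segments 19 had a higher and 53 a lower share, and the median was -0.39. Ighv2-3, which lies between Ighv5-4 and Ighv5-6, had the largest rise of its family, from 1.20% to 1.73%. Ighv2-9-1, next to Ighv5-9-1, had 56 counts in resting and 60 in LPS-treated ΔleftPAL cells, and its share fell from 0.429% to 0.117% (log2 -1.88, interval -2.43 to -1.33). In ΔIRIS its share was 0.315% at rest and 0.265% after LPS.

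Segments were then put in order along the locus and cut into 5 blocks of 22 or 23, block 1 being the nearest to the D elements and the constant genes. Block 1 held 31.4%, 43.9%, 30.6% and 28.9% of the Ighv counts in ΔleftPAL resting, ΔleftPAL LPS, ΔIRIS resting and ΔIRIS LPS. Block 2 held 25.7%, 26.5%, 25.3% and 29.2%, and block 3 21.99%, 18.2%, 24.4% and 25.3%. Block 4 held 10.7%, 6.56%, 10.6% and 9.01%, and block 5 10.2%, 4.85%, 9.09% and 7.62%. In ΔleftPAL the log2 changes after LPS ran in order along the locus, 0.48, 0.04, -0.27, -0.71 and -1.07 from block 1 to block 5. In ΔIRIS they were -0.08, 0.21, 0.05, -0.24 and -0.26.

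A share that rises in 1 family lowers all others, so the blocks were also computed with the Ighv5 family left out, a choice made after the values were seen. Block 1 then held 20.5% at rest and 22.4% after LPS in ΔleftPAL, and 20.4% and 17.7% in ΔIRIS. Block 2 held 29.8% and 36.7% in ΔleftPAL and 29.0% and 33.8% in ΔIRIS. The log2 changes in ΔleftPAL were then 0.13, 0.30, -0.02, -0.45 and -0.82 from block 1 to block 5, so block 2 rose most and the order along the locus did not hold at the near end. Block 5 still fell, from 11.8% to 6.71% in ΔleftPAL (log2 -0.82, interval -0.92 to -0.72) and from 10.4% to 8.82% in ΔIRIS (log2 -0.24, interval -0.34 to -0.15). Block 4 fell by 0.45 on the log2 scale in ΔleftPAL and by 0.23 in ΔIRIS. Without the Ighv5 family, the far blocks thus still had a lower share in the ΔleftPAL LPS library than in the other 3.

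**Figure D4:**
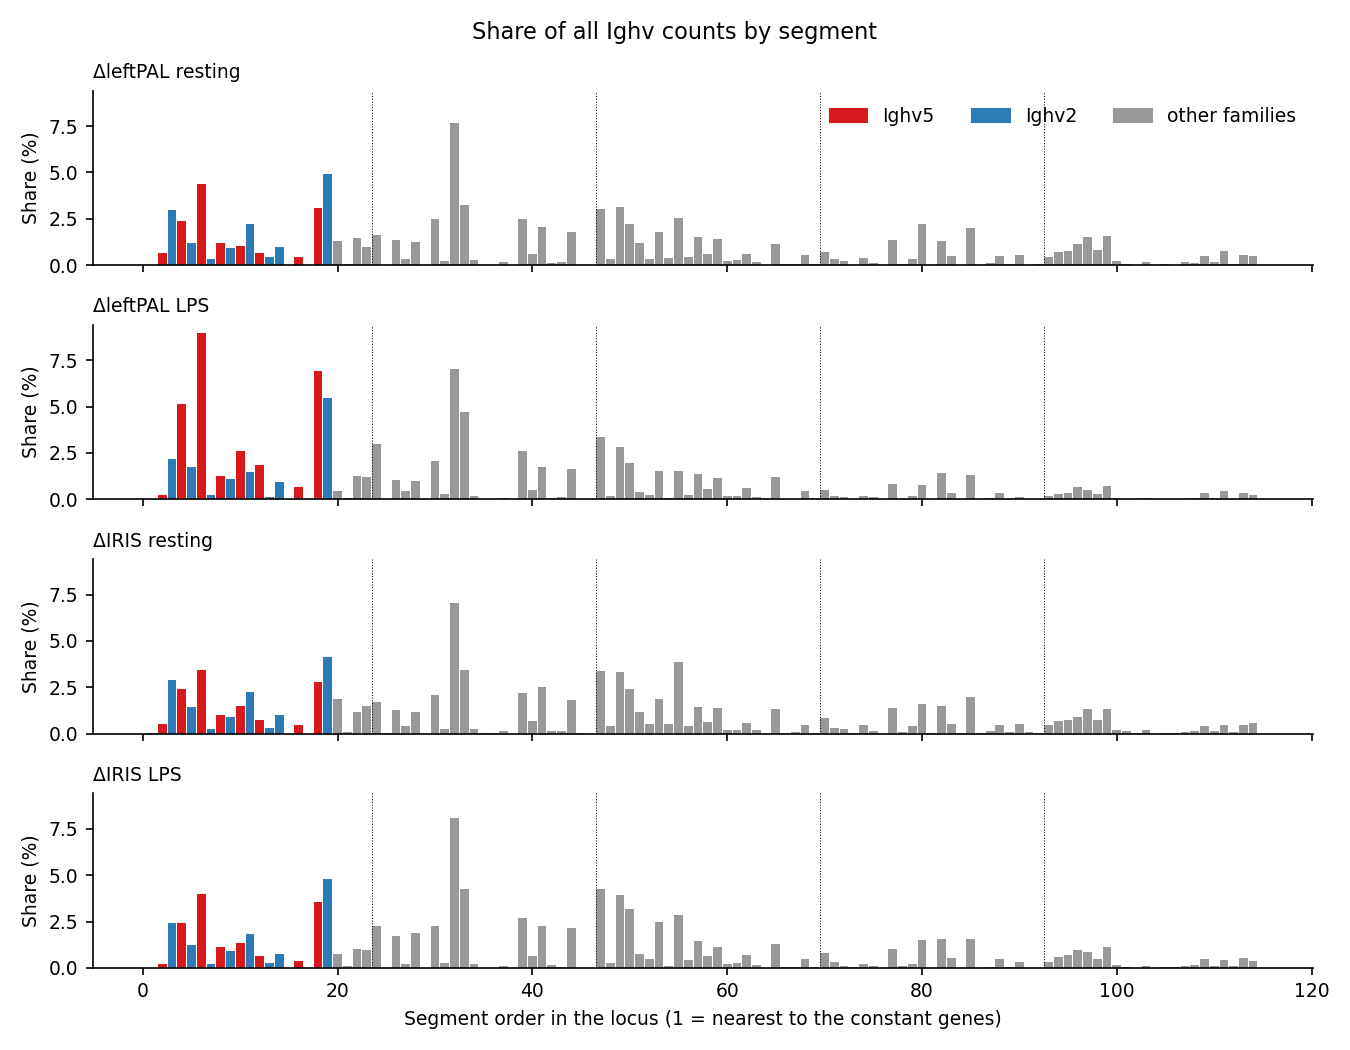
Share of all Ighv counts (%) of each of the 114 segments in their order along the locus (1 is nearest to the constant genes), with 1 panel for each of the 4 libraries, and dotted lines between the 5 blocks. In ΔleftPAL LPS the red Ighv5 bars rise to up to 8.97% among the blue Ighv2 bars, and the bars of block 5 together hold 4.85% against 10.2% in ΔleftPAL resting.

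The far blocks consist of Ighv1 and Ighv8. Ighv1, with 55 members, fell from 30.2% to 19.8% in ΔleftPAL and from 30.8% to 28.6% in ΔIRIS. Of its 32 segments with a mean of at least 50 counts, 30 had a lower share after LPS in ΔleftPAL (median log2 -0.73). In ΔIRIS 18 of the 32 did (median -0.04). Over all 72 segments 53 had a lower share in ΔleftPAL (median -0.39) and 42 in ΔIRIS (median -0.07). Ighv8 held 5.81%, 3.31%, 5.52% and 4.52% in ΔleftPAL resting, ΔleftPAL LPS, ΔIRIS resting and ΔIRIS LPS. Its 4 segments with a mean of at least 50 counts had a lower share after LPS in both genotypes, with medians of log2 -0.90 and -0.27. With the Ighv5 family left out, Ighv1 held 35.0%, 27.3%, 35.4% and 33.1%.

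In ΔleftPAL 14 of the 72 segments had a share at least 2-fold lower after LPS, against 1.28% of the kappa V segments by the same rule and 15.5% of all genes by CPM. They were Ighv5-2, Ighv2-9-1, Ighv7-1, Ighv15-2, 8 Ighv1 segments and the Ighv8 segments Ighv8-11 and Ighv8-12. When shares were taken without the Ighv5 family, 8 of 64 segments were lower and 1, Ighv3-1, was higher, and Ighv1-63, Ighv1-64, Ighv1-85, Ighv8-11 and Ighv8-12 were no longer 2-fold apart. Ighv1-62-2 had 71, 76, 74 and 124 counts in ΔleftPAL resting, ΔleftPAL LPS, ΔIRIS resting and ΔIRIS LPS, and its share changed by log2 -1.88 (interval -2.36 to -1.39) in ΔleftPAL and -0.72 (-1.15 to -0.29) in ΔIRIS. The V exon of Ighv1-62-2 is identical to that of Ighv1-71, so reads inside it cannot be told apart, and the 2 segments summed had 99, 125, 103 and 181 counts, with changes of log2 -1.64 (-2.03 to -1.24) and -0.65 (-1.01 to -0.29). Ighv1-5 had 154, 209, 167 and 310 counts, with changes of log2 -1.54 and -0.57. Ighv1-53 had 286, 390, 232 and 608 counts, with changes of log2 -1.53 (-1.75 to -1.30) and -0.08 (-0.30 to 0.15). The Ighv1-53 share was thus lowest in ΔleftPAL LPS, at 0.758%, against 2.19%, 1.59% and 1.504% in ΔleftPAL resting, ΔIRIS resting and ΔIRIS LPS.

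In ΔIRIS 4 segments had a share at least 2-fold lower after LPS, Ighv5-2, Ighv7-1, Ighv11-2 and Ighv15-2, and these were the only ones 2-fold apart. By the same rule 5.13% of the kappa V segments were lower, and by CPM 17.3% of all genes were lower and 38.9% apart in either direction. Of these, 3 were also among the 14 of ΔleftPAL, which is 75% of the ΔIRIS list and 21.4% of the ΔleftPAL list. Ighv15-2, the lone member of its family, had 53, 44, 73 and 49 counts in ΔleftPAL resting, ΔleftPAL LPS, ΔIRIS resting and ΔIRIS LPS. Its share fell from 0.406% to 0.0856% (log2 -2.25, interval -2.86 to -1.64) and from 0.499% to 0.121% (log2 -2.04, interval -2.59 to -1.5002). On the CPM scale it stood at 2.17, 1.63, 2.51 and 1.67, so it did not take part in the rise of all segments together. Ighv7-1, the S107 segment known from antibodies to phosphorylcholine, had 167, 217, 270 and 295 counts, and its share changed by log2 -1.60 (-1.90 to -1.30) and -1.34 (-1.58 to -1.10).

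Marginal zone B cell markers were measured beside these falls. The 4 markers summed to 1011 and 280 CPM in ΔleftPAL at rest and after LPS and to 674 and 174 CPM in ΔIRIS, and the 2 follicular markers to 558.1, 115, 537 and 82.5 CPM in ΔleftPAL resting, ΔleftPAL LPS, ΔIRIS resting and ΔIRIS LPS. Both sums were lower in both LPS libraries. Cr2 supplied most of the marginal zone sum (798, 179, 515 and 85.8 CPM), and Cd9 did not fall in ΔleftPAL (18.3 and 19.8 CPM, against 29.0 and 15.0 in ΔIRIS). Their part in the segment shares was not tested.

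Ighv11-2 and Ighv12-3, segments known from B-1 cells that bind phosphatidylcholine, differed between the LPS libraries. Ighv11-2 had 40, 229, 63 and 83 counts in ΔleftPAL resting, ΔleftPAL LPS, ΔIRIS resting and ΔIRIS LPS, or 0.306%, 0.445%, 0.431% and 0.205% of the Ighv counts. Its share changed by log2 0.54 (interval 0.05 to 1.06) in ΔleftPAL and by -1.07 (-1.56 to -0.57) in ΔIRIS. Its V exon is 98.7% identical to that of Ighv11-1, and the 2 summed changed by log2 0.49 and -1.09. Ighv12-3, under the mean of 50 counts, had 21, 72, 17 and 20 counts, and its share changed by log2 -0.20 (-0.92 to 0.58) and -1.23 (-2.24 to -0.21). The 5 B-1 markers summed to 49.0, 260, 69.8 and 327 CPM, chiefly Zbtb32 after LPS. Spn, which encodes the CD43 used for depletion, had 537, 1768, 364 and 2205 counts, and Spn, Zbtb32 and Ctla4 were higher after LPS in both genotypes. Bhlhe41 was at 20.1, 21.9, 50.5 and 27.7 CPM, and Cd5 was lower after LPS in both, with 97, 8, 68 and 9 counts. Their part in these shares was not tested.

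Other segments changed in opposite directions in the 2 genotypes. Ighv14-3 held 1.26%, 0.986%, 1.16% and 1.88% in ΔleftPAL resting, ΔleftPAL LPS, ΔIRIS resting and ΔIRIS LPS, changes of log2 -0.36 and 0.70, and had the largest rise of share after LPS in ΔIRIS. Ighv14-2 held 1.33%, 1.07%, 1.25% and 1.71%. Ighv4-1 held 0.949%, 1.22%, 1.49% and 0.972%. Ighv3-1, outside the Ighv5 family, had the next largest rise after LPS in ΔleftPAL, from 1.60% to 2.97% (log2 0.89), and in ΔIRIS it went from 1.68% to 2.27% (log2 0.43). For Ighv3-1 kallisto gave 5.52, 59.0, 0 and 9.30 estimated counts, at most 3.87% of its gene counts, and it gave less than 10% also for Ighv14-3, Ighv7-3 and Ighv1-53 in every library, so the values of these 4 segments rest on the gene counts alone.

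**Figure D5:**
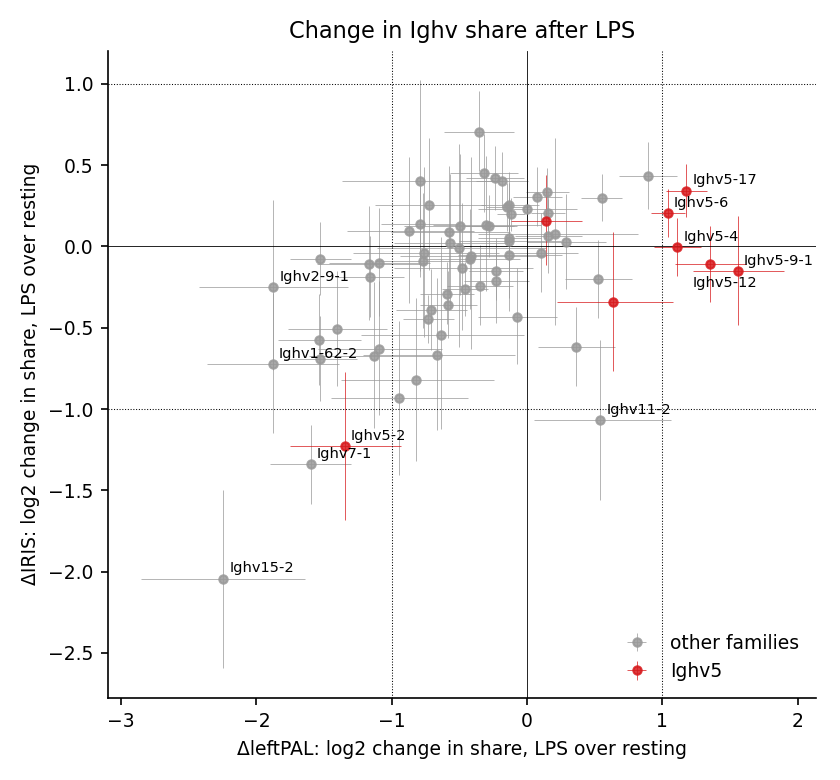
Log2 change in the share of Ighv counts after LPS in ΔleftPAL (x) against ΔIRIS (y) for the 72 segments with a mean of at least 50 counts, Ighv5 in red, with 95% counting intervals as bars and dotted lines at a 2-fold change. Ighv5-6, Ighv5-17, Ighv5-4, Ighv5-12 and Ighv5-9-1 lie right of the 2-fold line at log2 1.04 to 1.56 in ΔleftPAL and at log2 -0.15 to 0.34 in ΔIRIS, while Ighv5-2, Ighv7-1 and Ighv15-2 lie low in both.

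The genotypes were also compared directly after LPS. Of the 72 segments, 2 had an at least 2-fold higher share in ΔIRIS (Ighv2-9-1 and Ighv1-62-2) and 4 a lower one (Ighv5-4, Ighv5-6, Ighv5-9-1 and Ighv11-2), against 2.56% and 7.69% of the kappa V segments and 0.567% and 1.41% of all genes by CPM. With Ighv1-62-2 and Ighv1-71 summed, a choice made after the values were seen, the pair was 1.84-fold higher and thus no longer 2-fold apart. With the Ighv5 family left out, 0 segments were higher and 1, Ighv11-2, was lower. In either direction 6 of the 72 were apart, against 10.3% of the kappa V segments and 1.98% of all genes by CPM. Ighv5-6 was lower in ΔIRIS by log2 -1.17 (interval -1.26 to -1.09) and Ighv5-9-1 by log2 -1.499 (-1.70 to -1.30). All 8 Ighv5 segments with a mean of at least 50 counts had a lower share in ΔIRIS LPS, with a median of log2 -0.95, and all 32 Ighv1 segments a higher one, with a median of 0.59. Over all 72 segments 53 had a higher and 19 a lower share in ΔIRIS LPS, with a median of 0.32. This comparison shares the ΔleftPAL LPS and ΔIRIS LPS libraries with those above and is no separate evidence for them.

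On the scale of CPM the picture followed the total. In ΔleftPAL 48 of the 72 segments were at least 2-fold higher after LPS and in ΔIRIS 53, against 20.1% and 21.6% of all genes, and no segment was 2-fold lower in either, against 15.5% and 17.3% of all genes. Between the genotypes no segment was 2-fold apart at rest, against 2.85% of all genes. After LPS 7 were lower in ΔIRIS and none higher, against 1.41% and 0.567% of all genes. Median log2 CPM changes after LPS were 1.37 in ΔleftPAL and 1.26 in ΔIRIS, against 0.12 and 0.13 over all genes.

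The authors' transcript-level estimates gave a second view of the Ighv5 family. kallisto, which assigns reads to transcripts by exact short matches, placed on a median segment 38.1%, 37.5%, 43.4% and 40.0% as many reads as the gene counts in ΔleftPAL resting, ΔleftPAL LPS, ΔIRIS resting and ΔIRIS LPS, against 101% over all genes in each library. On the Ighv5 family kallisto placed 30.7%, 27.8%, 31.3% and 28.3% as many reads as the gene counts. For Ighv5-12 it was 14.4% at rest (19.2 estimated counts) and 11.7% after LPS in ΔleftPAL. The values below thus rest on a smaller part of the reads of the same libraries. The Ighv5 share by kallisto was 10.3%, 20.6%, 8.96% and 9.29%. Of the 5 Ighv5 segments above, Ighv5-6 (2.41-fold), Ighv5-12 (2.28-fold), Ighv5-9-1 (3.796-fold) and Ighv5-17 (2.93-fold) were again at least 2-fold higher after LPS in ΔleftPAL, while Ighv5-4 was 1.41-fold higher. Of the 14 lower segments of ΔleftPAL, 8 had a mean of at least 50 estimated counts and 6 of these were again 2-fold lower. Ighv1-22 was 2-fold lower in ΔleftPAL by kallisto alone. All 4 lower segments of ΔIRIS were again 2-fold lower. For ΔIRIS over ΔleftPAL after LPS, kallisto put 3 of the 4 lower segments (Ighv5-6, Ighv5-9-1 and Ighv11-2) past 2-fold again. Of the 2 higher segments 1, Ighv1-62-2, had a mean of at least 50 estimated counts, and it was not 2-fold higher by kallisto. Ighv1-5 and Ighv1-64 were higher and Ighv5-17 was lower by kallisto alone. At rest Ighv4-1 was at least 2-fold higher in ΔIRIS by kallisto alone.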

How the data were processed

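Splenic B cells of 2 mouse genotypes, resting or after 48 h with LPS, gave 4 ribosomal RNA-depleted stranded libraries (paired reads of 150 bases), each from 4 pooled animals per the labels. The authors aligned reads with STAR 2.4.0a to mm10 and deposited raw counts per gene from featureCounts (Subread 1.4.6-p1), counting a multi-mapping fragment at its primary alignment, which can split reads among similar segments. The authors also deposited kallisto 0.42.3 estimated counts and TPM values per transcript, summed here by symbol. The row without a gene name held 0.00876% to 0.0264% of the counts and was left out. Unrearranged and rearranged transcripts cannot be told apart in these counts.

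Shares of all Ighv counts, and CPM on TMM-scaled library sizes (edgeR 4.0.16, R 4.3.3), were computed. With 1 library per group no test was run. A model of additive genotype and LPS effects would leave 1 residual degree of freedom and was not fitted. Intervals are Clopper-Pearson (95%), and ratios use the conditional binomial. Segments averaging 50 counts or more were called at a 2-fold difference in share, and all genes likewise on CPM plus 0.5. A gene at 3 counts or fewer was taken as at the floor. The calling step was tested on simulated data, which checks its arithmetic and counting error and says nothing of the spread between animals. DESeq2 1.42.0 size factors and the other alternatives are given in the closing section.

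Segments to name were listed by rule. The list held the 10 with the largest mean share, each family's leader and those with at least 2% in any library. It also held the 5 largest folds per direction and comparison. Not all of the 40 listed segments are described, and Ighv1-9 and Ighv2-2, both among the 10, are not. Other named segments (Ighv1-14, Ighv2-3, Ighv5-9, Ighv5-15 and the remaining called segments) were chosen after their values were seen. Members and lists were chosen with earlier results of these data known. Locations come from the count table, gene types, exons and sequences from GENCODE M21 (GRCm38). Python 3.11.15, numpy 2.4.6, pandas 2.3.3, scipy 1.17.1 and matplotlib 3.10.9 were used.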

Additional observations from a re-analysis of the deposited data

Results flagged for a closer look

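Shares that changed in opposite directions after LPS in the 2 genotypes, each with an interval that excludes no change, are listed here. The difference between genotypes (ΔIRIS minus ΔleftPAL, log2) was not tested, since each group is 1 library. It was 0.66 for Ighv1-7 (-0.24 in ΔleftPAL, 0.42 in ΔIRIS), -1.61 for Ighv11-2 (0.54 and -1.07), 0.77 for Ighv14-2 (-0.32 and 0.45), 1.06 for Ighv14-3 (-0.36 and 0.70), -0.98 for Ighv4-1, which is its whole family (0.36 and -0.62), and 0.32 for Ighv9-3 (-0.12 and 0.20). Among families it was 0.31 for Ighv9, 0.37 for Ighv10, -1.58 for Ighv11 and 0.63 for Ighv14. For the block of segments nearest to the constant genes it was -0.57 (0.48 in ΔleftPAL and -0.08 in ΔIRIS).

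The transcript-level table holds V segments that the gene count table does not. It lists 172 Ighv symbols, of which 58 are outside the 114, and these summed to 272, 1497, 367 and 933 estimated counts in ΔleftPAL resting, ΔleftPAL LPS, ΔIRIS resting and ΔIRIS LPS. Ighv3-2, annotated as a pseudogene, led them with 141, 1026, 172 and 567.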

How the results depend on the processing

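Each group holds 1 library, so none was left out in turn. LPS and resting libraries can be paired within each genotype, but a fit on these 2 pairs would take the difference between the genotypes as its error, and it was not run. The intervals are narrow, so most alternatives moved a level beyond them; alternatives that set the Ighv5 family aside, and the per-base shares and all values of the Ighv5 share, were added after the values were seen. Unless a comparison is named, values are in the order ΔleftPAL resting, ΔleftPAL LPS, ΔIRIS resting and ΔIRIS LPS. Under every alternative run, the Ighv5 share was about doubled after LPS in ΔleftPAL. The rise of the Ighv total after LPS depended most on the reference, from log2 1.84 and 1.46 in ΔleftPAL and ΔIRIS to nearly 0 relative to Ighm and to over 2 relative to Cd79a and Cd79b. The effective number of segments after LPS, which by kallisto was nearly the same in both genotypes, the leading segment, the number of segments 2-fold apart and the sign of the genotype comparisons of the Ighv total also changed. The cause was not tested.

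The effective number of segments was 31.9, 27.4, 33.4 and 27.7 with kallisto estimated counts, 30.9, 27.1, 32.5 and 27.1 with kallisto TPM, 39.7, 27.5, 41.4 and 35.5 without pseudogenes, 45.9, 28.4, 47.1 and 40.6 without Ighv9-3, 36.0, 28.0, 37.4 and 31.7 without Ighv5, and 42.4, 29.2, 44.7 and 37.9 per base. The Ighv1 share (%) was 32.2, 23.1, 34.6 and 31.8 with kallisto estimated counts, 32.9, 23.8, 35.3 and 32.2 with TPM, 28.7, 18.4, 29.3 and 27.2 without pseudogenes, 32.7, 21.3, 33.2 and 31.1 without Ighv9-3, 35.0, 27.3, 35.4 and 33.1 without Ighv5, and 31.7, 20.8, 32.5 and 29.8 per base.

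The share of block 1 (%) was 31.2, 40.5, 29.6 and 27.5 with kallisto estimated counts, 30.1, 38.9, 28.6 and 26.6 with TPM, 32.0, 44.6, 31.3 and 29.5 without pseudogenes, 34.0, 47.2, 32.9 and 31.4 without Ighv9-3, 20.5, 22.4, 20.4 and 17.7 without Ighv5, and 30.4, 43.0, 29.6 and 28.2 per base. The Ighv5 share (%) was 10.3, 20.6, 8.96 and 9.29 with kallisto estimated counts, 9.05, 18.4, 7.87 and 8.08 with TPM, 14.0, 28.2, 13.1 and 13.9 without pseudogenes, 14.8, 29.8, 13.8 and 14.8 without Ighv9-3, and 13.2, 27.1, 12.4 and 13.3 per base. The pseudogene share (%) was 2.35, 2.18, 2.60 and 2.33 with kallisto estimated counts and 2.00, 1.94, 2.32 and 2.06 with TPM. The Ighv9-3 share (%) was 4.69, 4.05, 4.11 and 4.29 with kallisto estimated counts and 4.86, 4.30, 4.27 and 4.48 with TPM.

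The segments 2-fold apart, 19, 4, 0 and 6 for LPS over resting in ΔleftPAL and in ΔIRIS and for ΔIRIS over ΔleftPAL at rest and after LPS, became 11, 4, 1 and 6 by either kallisto unit (of the last 6, 3 were shared with the gene counts by estimated counts), 29, 7, 1 and 10 with a minimum mean of 10 counts, 10, 1, 0 and 3 with 200, 34, 13, 7 and 16 with none, 48, 53, 0 and 7 on CPM, 1, 1, 0 and 0 at 4-fold, and 9, 3, 0 and 1 without Ighv5. The log2 ratio of the Ighv total, in the same order of comparisons, was 1.74, 1.41, -0.12 and -0.45 on total counts, 1.80, 1.43, -0.07 and -0.45 with DESeq2 size factors, 1.85, 1.44, -0.08 and -0.49 with TMM without immunoglobulin genes, 2.82, 2.11, 0.31 and -0.40 relative to Cd79a and Cd79b, 1.53, 1.15, -0.0011 and -0.38 with kallisto estimated counts, 1.396, 1.11, -0.045 and -0.34 with TPM, and 1.58, 1.44, -0.07 and -0.21 without Ighv5. Relative to Ighm it was 0.032, 0.050, 0.061 and 0.079, so the sign of both genotype comparisons turned, as did that at rest relative to Cd79a and Cd79b. Leaving out pseudogenes or Ighv9-3 changed the number of segments 2-fold apart in no comparison but the last, which became 7 without Ighv9-3. Summing Ighv1-62-2 and Ighv1-71, whose V exons are identical, changed the last from 6 to 5 and no other (added after the values were seen). Depth limits the rarer segments: 42 of the 114 segments were too low to compare.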
